A study of Mus musculus with 4 samples.

Results

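The hormone gene Fgf21, its co-receptor gene Klb and the FGF receptor genes Fgfr1, Fgfr2, Fgfr3 and Fgfr4 were followed through the livers of this series. They were picked by name, as 6 of the 32285 mouse genes in the count matrices, with earlier results of these data known. The series holds single-nucleus RNA-seq of mouse liver, which counts, for every nucleus, the RNA molecules of each gene by their unique molecular identifiers (UMIs). It has 4 libraries, 1 for each of 4 groups. The groups combined a chow diet (CD) or a low-protein diet (LPD), in which carbohydrate takes the place of protein, with an injection of oncogene or vector plasmids. Per the labels and the methods of the study, Bl/6 mice ate their diet for 1 week, received the plasmids by hydrodynamic tail vein injection, and stayed on the diet for 2 more weeks. In the oncogene groups the plasmids carried human c-MET and a β-catenin without its N-terminal part, which a Sleeping Beauty transposase inserts into the genome of a scattered minority of hepatocytes. The control groups received vector. Per the study's general methods, mice were male and 6 to 8 weeks old, and experiments were done at about 2 p.m. after 5 hours without food, unless stated otherwise. The number of livers behind a library is not given in the sources used here, so a library stands for its group without a replicate and no difference has a test. The interval given with a value is at 95% and reflects counting error alone. Where 4 values follow each other, the CD pair comes first and the LPD pair second, each as control and then oncogene by its label.

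FGF21 is a hormone that the liver releases when protein is scarce or during fasting, and it acts on fat, brain and other tissues. It binds a pair of proteins, β-klotho (the product of Klb) and an FGF receptor, mainly FGFR1, and cells without β-klotho do not respond to it. Hepatocytes themselves make β-klotho together with FGFR4, and through this pair they sense the gut hormone FGF15 and lower bile acid synthesis, whereas FGFR2 and FGFR3 are better known as receptors of locally acting FGFs.

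The libraries differed in depth and in how well the transgenes matched the labels. The hepatocyte nuclei, 33733 in all and 6955 to 10519 per library, had a median of 4486 and 3616 UMIs on CD and of 2231 and 2256 on LPD. Mitochondrial genes took a median of 2.42% and 0.983% of the UMIs of a nucleus on CD and 0.09997% and 0.127% on LPD, so diet, depth and mitochondrial share cannot be told apart here. UMIs of the 2 human transgenes went against the CD labels: the library labelled CD control held 100 of them and the one labelled CD oncogene held 0. The LPD control library held 0 and the LPD oncogene library 6. The CD libraries kept 10397 and 12552 nuclei, while the text of the study gives its CD control the larger number. CD libraries are therefore named below by their labels only, and no direction of the oncogene effect is drawn from them. Any pair of libraries shared 18 to 40 barcodes. All 18 hepatocyte markers of the gate were detected in the hepatocyte nuclei of every library.

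Fgf21 lies on chromosome 7 of the mouse genome (GRCm38, GENCODE M21) at chr7:45613886-45615490 on the minus strand, a short gene of 1605 bases that no other gene overlaps. The stretch before its start site is shown because the diet difference below is largest for this gene and because the factors known to drive Fgf21, ATF4 under amino acid shortage and ChREBP under sugar load, bind near it. The sequence is RefSeq's (GRCm38.p6), chr7:45615491-45615640 read on the minus strand from 150 bases before the start site to the base before it, with motif matches in capitals.
Fgf21 upstream: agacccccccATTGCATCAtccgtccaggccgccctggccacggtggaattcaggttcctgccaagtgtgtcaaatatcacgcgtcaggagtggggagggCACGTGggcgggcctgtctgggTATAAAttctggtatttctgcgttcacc
The first run in capitals, at -140, matches the C/EBP-ATF response element TGATGNAAN on the opposite strand. The second, at -50, is the E-box core CACGTG, and the third, at -28, is the TATA box TATAAA. Both strands of 32851 RefSeq promoter windows, each from 250 bases before to 50 bases after a start site, were searched in the same way. The response element was found in 3.95% of them, the E-box core in 7.15% and the TATA box in 13.6%. Of the 6 windows of the other members and Fgf21 (5 members had 1 or more, and Fgfr1 had none), only that of Fgf21 held the response element and the TATA box, and the E-box core was also in a window of Fgfr2. A PPAR element, the letters AGGTCA repeated with 1 base between, was in none of them and in 0.0396% of all windows. These matches describe letters and are not evidence of binding.

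Fgf21 was close to silent on CD and expressed on LPD. Its level in the summed hepatocyte nuclei, in UMIs per 1000000 mouse UMIs (CPM), was 0.651 (interval 0.439 to 0.929, 30 UMIs) in the library labelled CD control and 0.335 (0.198 to 0.529, 18 UMIs) in the one labelled CD oncogene. It was 34.3 (31.8 to 36.9, 708 UMIs) in the LPD control library and 126 (121 to 131, 2384 UMIs) in the LPD oncogene library. Both LPD libraries lay far above both CD libraries, and the LPD libraries lay apart from each other. The fold of an LPD over a CD library ran from 52.7 (36.6 to 78.7) for LPD control over CD control to 377 (238 to 638) for LPD oncogene over CD oncogene. The share of hepatocyte nuclei with an Fgf21 UMI was 0.323% and 0.162% on CD against 7.70% and 25.1% on LPD. Nuclei thinned to 1000 UMIs each, so that depth was equal, gave 0.067% and 0.0421% on CD against 3.42% and 12.1% on LPD.

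Klb, the β-klotho gene (chr5:65348314-65384007, plus strand), was also higher on LPD, by less. Its level was 46.3 CPM (44.4 to 48.3) and 94.9 (92.3 to 97.5) on CD, and 172 (166 to 177) and 187 (181 to 193) on LPD. The lowest LPD level stood 1.81-fold (1.73 to 1.89) above the higher CD level. The spread between the CD libraries, 2.05-fold (1.95 to 2.16), was larger than that gap. At equal depth, 4.37% and 8.60% of CD nuclei and 15.3% and 15% of LPD nuclei held a Klb UMI.

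**Figure D1:**
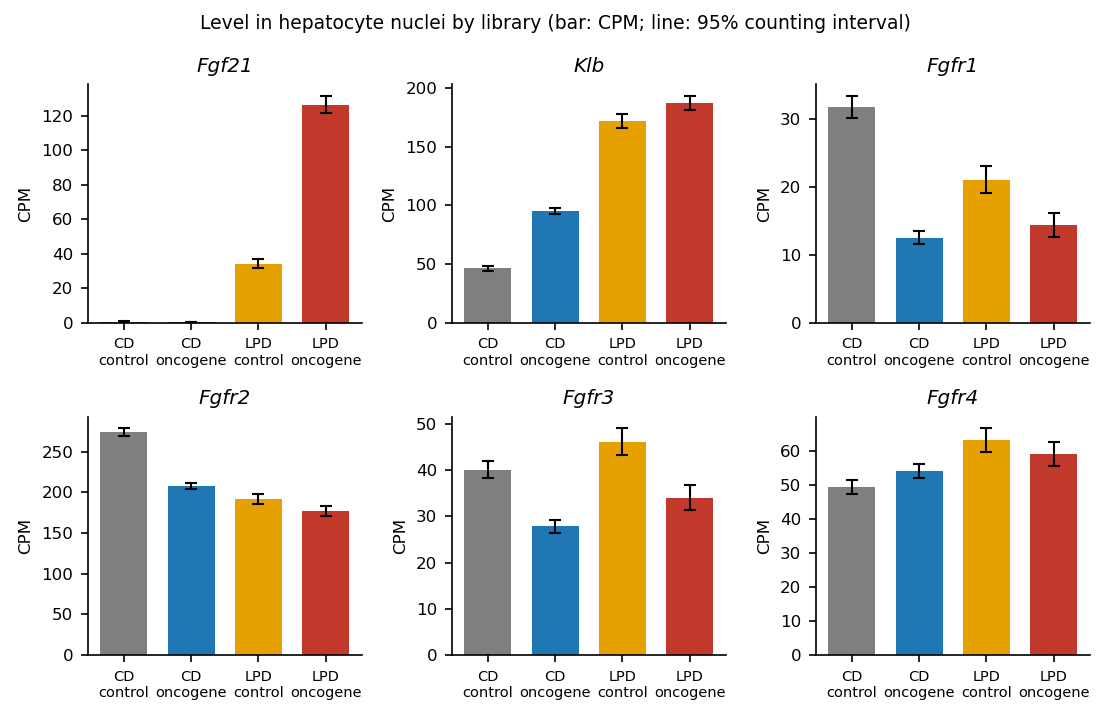
Level of each gene in hepatocyte nuclei, in CPM, for the 4 libraries; each bar is the CPM of 1 library and each line its 95% counting interval. Fgf21 reached 34.3 and 126 CPM on LPD and stayed under 1 CPM on CD, Klb was highest in the LPD libraries, and the receptor genes showed no common order.

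No receptor gene separated the diets by a wide margin. Fgfr1 (chr8:25513654-25575718, plus strand), the main partner of β-klotho for FGF21, measured 31.8 CPM (30.1 to 33.4) and 12.5 (11.6 to 13.5) on CD, and 21.1 (19.1 to 23.1) and 14.4 (12.7 to 16.2) on LPD. The CD libraries lay on either side of the LPD libraries. Fgfr2 (chr7:130162451-133123350, minus strand) measured 274 (269 to 279), 207 (204 to 211), 192 (186 to 198) and 177 (171 to 183) CPM, lower in both LPD than in both CD libraries, though the LPD control and CD oncogene libraries differed only by a log2 ratio of -0.11 (-0.17 to -0.06). Fgfr3 (chr5:33721674-33737068, plus strand) measured 40.1 (38.3 to 41.9), 27.8 (26.4 to 29.2), 46.0 (43.2 to 49.1) and 34.0 (31.4 to 36.7), with overlap between the diets. Fgfr4 (chr13:55152640-55168759, plus strand), the receptor for FGF15 on hepatocytes, varied least, at 49.4 (47.4 to 51.5), 54.1 (52.1 to 56.1), 63.1 (59.8 to 66.7) and 59.0 (55.6 to 62.6), with both LPD libraries above both CD libraries. That order was lost with TMM scaling, which gave 50.03, 60.04, 59.8 and 55.5 CPM for Fgfr4.

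The gene model of Fgfr2 needs care. It spans 2960900 bases because 1 of its 27 transcripts runs over more than 1 Mb, while the next longest covers 103813 bases. In that span lie 69 other genes, 36 of them on the same strand. Which annotation the counts were made with is not given in the sources used here, and whether RNA from outside the receptor proper entered the Fgfr2 counts was not tested. Fgfr1 and Fgfr3 each overlap 1 gene on the opposite strand, and Klb and Fgfr4 overlap none.

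Set against all genes, 1 of the 6 members, Fgf21, was past 2-fold higher (on log2 of CPM plus 5) in all 4 possible LPD-CD pairs of libraries, where 2.58% of 7260 genes tested were. None was past 2-fold lower in all 4 pairs, where 1.53% were. All 6 members passed the filter of at least 20 CPM in 1 library and 50 UMIs in all, Fgf21 through its LPD libraries alone. By the mean of the 4 pairs Fgf21 ranked 5 and Klb 173 from the top of the 7260 genes. Because the members were chosen with earlier results of these data known, these counts and ranks are a description only. The mean log2 ratio on this scale was 3.71 for Fgf21 and 1.36 for Klb, 0.22 for both Fgfr3 and Fgfr4, -0.18 for Fgfr1 and -0.36 for Fgfr2. The median gene itself stood at 0.16, 0.25, 0.13 and 0.23 in the 4 pairs, so the values of Fgfr3 and Fgfr4 lay close to that of the median gene. Without the added 5 CPM the mean log2 ratio of Fgf21 was 7.14.

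Hepatocytes differ along the lobule, from the periportal cells where blood enters to the pericentral cells where it leaves, and the members differed in how they followed this axis. The hepatocyte nuclei of each library were split into 3 equal groups, pericentral, middle and periportal. The split used a score of 12 pericentral against 12 periportal markers, none of them a member. Oat, a pericentral marker of the score, lies on the same strand within the long gene model of Fgfr2. Its part in the Fgfr2 values by zone was not tested. Fgfr1 was the most zonated member. Its level went from 5.03 CPM in pericentral to 65.8 in periportal nuclei of the library labelled CD control, from 2.47 to 21.5 in that labelled CD oncogene, from 5.69 to 33.7 in LPD control and from 3.86 to 23.4 in LPD oncogene. The periportal level exceeded the pericentral level by 13.1-fold (10.4 to 16.7), 8.72-fold (6.43 to 12.1), 5.92-fold (4.22 to 8.49) and 6.07-fold (3.98 to 9.60). The pericentral levels of the 4 libraries lay between 2.47 and 5.69 CPM, and the library labelled CD control stood apart by its periportal nuclei. Fgfr1 was the 1 member past 2-fold higher in periportal nuclei of all 4 libraries, as were 0.713% of 7578 genes tested.

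Fgfr2 had a zonal pattern that differed between the diets. On CD its level was 261 CPM in pericentral, 216 in middle and 328 in periportal nuclei of the library labelled CD control, and 172, 185 and 254 in the one labelled CD oncogene. On LPD it was 63.1, 209 and 303 CPM in LPD control and 82.7, 171 and 285 in LPD oncogene. Periportal levels thus lay within 254 to 328 CPM in all 4 libraries, while pericentral levels were at 172 or above on CD and at 82.7 or below on LPD. The ratio of periportal to pericentral nuclei was 1.26-fold (1.21 to 1.31) and 1.47-fold (1.41 to 1.54) on CD, and 4.79-fold (4.33 to 5.32) and 3.45-fold (3.13 to 3.8) on LPD. Within pericentral nuclei the LPD over CD fold of Fgfr2 ran from 0.242 to 0.480 over the 4 pairs, in middle nuclei from 0.791 to 1.13 and in periportal nuclei from 0.868 to 1.19. Of the 6 members only Fgfr2 was past 2-fold higher in periportal nuclei of both LPD libraries and of neither CD library, as were 0.238% of the genes. The score limits between the groups differed between libraries. With 1 pair of limits for all of them, the mean log2 ratio of periportal to pericentral nuclei (5 CPM added) was 0.50 on CD and 2.02 on LPD, beside 0.44 and 1.95 with separate limits.

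Fgf21 was lowest in pericentral nuclei on LPD. In LPD control it measured 19.9 CPM (16.7 to 23.5) in pericentral, 39.3 (34.6 to 44.5) in middle and 43.8 (39.1 to 48.9) in periportal nuclei. In LPD oncogene it measured 87.6 (80.7 to 95), 149 (139 to 159) and 147 (137 to 157). Middle and periportal levels overlapped in their intervals, and the periportal level exceeded the pericentral by 2.20-fold (1.80 to 2.71) and 1.68-fold (1.51 to 1.86). On CD each group of nuclei held 5 to 11 Fgf21 UMIs, too few to show a gradient. LPD exceeded CD in each of the 3 groups, and the lowest of these folds, in pericentral nuclei, was 38.6.

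Klb, Fgfr3 and Fgfr4 were nearly level along the axis. The periportal over pericentral fold of Klb was 0.961 (0.868 to 1.06), 1.26 (1.18 to 1.34), 1.00 (0.927 to 1.09) and 0.813 (0.749 to 0.881), with no common direction. Fgfr3 ran from 0.870 to 1.15. Fgfr4 leaned to the periportal side on CD, at 1.34 (1.21 to 1.48) and 1.30 (1.19 to 1.42), and its interval held 1 in both LPD libraries. Hepatocytes of every zone thus carried RNA of β-klotho and of FGFR4, while RNA of FGFR1 was concentrated at the periportal end.

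**Figure D2:**
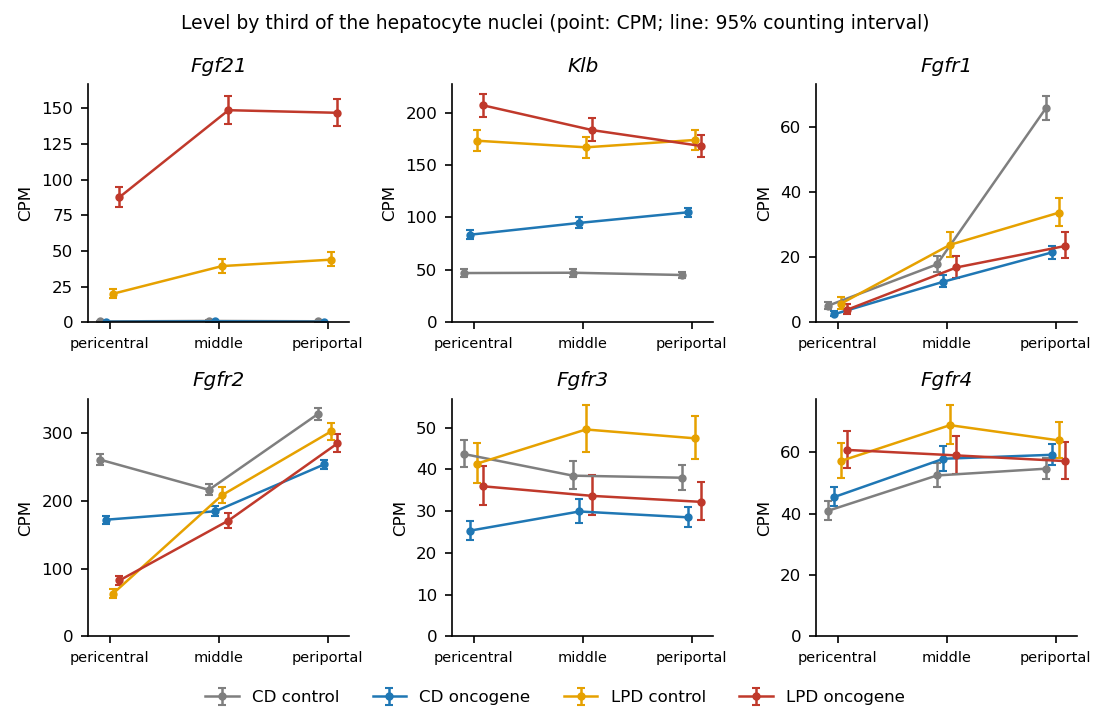
Level of each gene in pericentral, middle and periportal hepatocyte nuclei, in CPM; points are CPM values of 1 library and lines their 95% counting intervals. Fgfr1 was higher towards the periportal side in all 4 libraries, Fgfr2 was lowest in pericentral nuclei of the LPD libraries (63.1 and 82.7 CPM), and Fgf21 was lowest in pericentral nuclei on LPD.

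Between the injected groups of 1 diet, Fgf21 stood out on LPD. Its level was 3.68-fold (3.39 to 4.01) higher in LPD oncogene than in LPD control, and it was the 1 member past 2-fold higher there, as were 1.5% of 6864 genes. None of the members was past 2-fold lower, as were 1.02% of genes. The other members differed little in this pair: Klb by a log2 ratio of 0.12 (0.06 to 0.19), Fgfr2 by -0.12 (-0.18 to -0.05), Fgfr4 by -0.10 (-0.21 to 0.02), Fgfr3 by -0.44 (-0.58 to -0.29) and Fgfr1 by -0.55 (-0.78 to -0.33). Only 5 of the 6955 hepatocyte nuclei of LPD oncogene held a transgene UMI. The study itself detected these transcripts in few cells, so a nucleus without such a UMI may still carry the transgenes. Whether the higher Fgf21 level lay in nuclei with or without the transgenes was therefore not tested. In the library labelled CD oncogene against that labelled CD control, Fgfr1 was past 2-fold lower, at a log2 ratio of -1.07 with 5 CPM added and -1.35 (-1.48 to -1.21) without, as were 2.17% of 6489 genes. It was no longer past 2-fold as a mean of per-nucleus CPM (-0.96) or with TMM scaling (-0.98), and it turns to 1.07 if the CD labels are exchanged. Klb was higher there by 1.04 (0.96 to 1.11) on the plain log2 scale and 0.96 on that with 5 CPM added, so none of the 6 was past 2-fold higher, as were 2.36% of genes.

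In the library labelled CD control, 80 hepatocyte nuclei held a transgene UMI, 76 of them pericentral by the score. The score counts Glul, Cyp2e1, Cyp1a2 and Lgr5, which the study reports as high in oncogene-expressing hepatocytes. The study places those cells mostly in the periportal and middle parts of the lobule. Zone and transgene therefore cannot be told apart in these nuclei. The 80 nuclei were deeper than the rest, with a median of 6952.5 against 4468.5 UMIs, so their levels were compared with other pericentral nuclei as CPM. Fgfr2 measured 322 CPM in the transgene-positive and 258 in the 2715 other pericentral nuclei, a log2 ratio of 0.32 (0.11 to 0.52). Klb measured 62.9 against 46.2 (log2 ratio 0.45, -0.04 to 0.90), Fgfr3 45.0 against 43.6 and Fgfr4 33.0 against 41.3, and the intervals of all 3 held 0. Fgf21 had 0 UMIs in the 80 nuclei, which allows up to 4.32 CPM, against 0.661 CPM in the other hepatocyte nuclei. Fgfr1 had 4 UMIs in the 76 pericentral positive nuclei, a level of 5.99 against 4.99 CPM in the other pericentral nuclei. At this depth no difference in Fgf21 or Fgfr1 was detectable.

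Most nuclei with Fgf21 RNA on LPD held a single UMI of it. In LPD oncogene, 5210 hepatocyte nuclei had no Fgf21 UMI, 1294 had 1, 322 had 2, 126 had 3 to 5 and 3 had 6 or more. The median depth of these nuclei was higher with each higher count, from 2082 UMIs at 0 to 2699 at 1, 3285 at 2 and 4069 at 3 to 5. Nuclei with a single Fgf21 UMI held 54.3% of all Fgf21 UMIs of that library. In LPD control, 523 nuclei had 1 UMI, 74 had 2, 9 had 3 to 5 and 1 had more, and those with 1 UMI held 73.9% of the Fgf21 UMIs. The highest count in a nucleus was 7 in both libraries.

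Nuclei with and without Fgf21 were then compared at equal depth, each nucleus thinned to 1000 UMIs and Fgf21 itself left out of the totals. LPD control had 248 positive and 7012 negative nuclei and LPD oncogene 776 and 5615. Positive nuclei were pericentral less often (19.4% against 32.1% and 23.5% against 33.7%) and periportal more often (41.1% against 34.9% and 40.1% against 34.1%). On the log2 scale with 5 CPM added, none of the other members that passed the filter (5 and 4 of the 5) was past 2-fold in either direction. Nearest to it was Fgfr1 in LPD control, at 48.4 CPM in positive (12 UMIs) and 23.0 in negative nuclei, a log2 ratio of 0.93 on this scale and 1.08 (0.09 to 1.92) without the added CPM. In LPD oncogene, where Fgfr1 was under the filter, it measured 19.4 and 17.5 CPM. The background was 0.983% higher and 2.4% lower among 7324 genes in LPD control, and 0.086% higher and 0.229% lower among 6975 genes in LPD oncogene. On the same scale none of the tested genes of the 9 pathway lists described below was past 2-fold.

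Without the added CPM, 4 of 74 listed genes tested in LPD control had an interval wholly above 0 and 5 wholly below. In LPD oncogene 6 of 75 lay above and 2 below. The share of all genes with such an interval was not counted. Some intervals leave out 0 by counting error alone, so these counts are no result about the lists. Eif2ak3 and Cyp7a1 had an interval clear of 0 on the same side in both libraries. Eif2ak3, the kinase PERK, was higher in positive nuclei, and Cyp7a1, the rate-limiting enzyme of bile acid synthesis, was lower. Eif2ak3 had log2 ratios of 0.64 (0.06 to 1.17) and 0.51 (0.20 to 0.80). The list of FGF15-FGFR4-KLB output holds Nr0b2 and Mafg beside genes of bile acid synthesis and transport. Its summed level had a log2 ratio of -0.11 (-0.23 to 0.01) in LPD control, an interval that holds 0, and -0.15 (-0.22 to -0.07) in LPD oncogene. Sums of other lists were clear of 0 too. In LPD control ChREBP targets lay at 0.13 (0.05 to 0.22) and regulators of Fgf21 at 0.08 (0.01 to 0.14). PPARA targets lay at -0.09 (-0.18 to -0.01) in LPD control and at 0.05 (0.01 to 0.10) in LPD oncogene. Cyp7a1 measured 32.3 CPM in positive against 69.0 in negative nuclei of LPD control (8 UMIs in positive nuclei) and 102 against 165 in LPD oncogene (79 UMIs), log2 ratios of -1.1 (-2.32 to -0.11; -0.99 with 5 CPM added) and -0.69 (-1.04 to -0.36). Fgf21-positive nuclei were less often pericentral, and the part of zone in the Cyp7a1 difference was not tested. The amino acid deprivation list had log2 ratios of 0.12 (-0.15 to 0.38) and 0.10 (-0.05 to 0.24), intervals that hold 0.

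**Figure D3:**
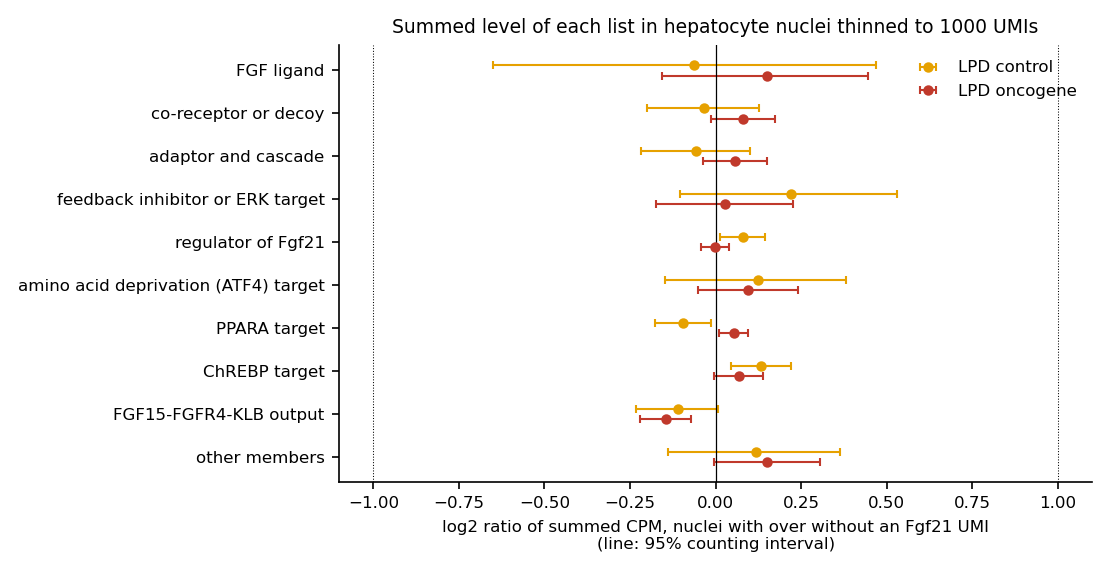
Log2 ratio of the summed CPM of each pathway list, and of the other 5 members, in LPD hepatocyte nuclei with over those without an Fgf21 UMI, all thinned to 1000 UMIs; points are values of 1 library, lines 95% counting intervals, and dotted lines mark 2-fold. All list sums lay well inside 2-fold, and the interval of the FGF15-FGFR4-KLB output sum was wholly below 0 in LPD oncogene only.

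Outside hepatocytes, the members fell into a pair of patterns, and free hepatocyte RNA set the level from which they were read. Non-hepatocyte nuclei, 5823 in 9 classes gated on markers, held hepatocyte RNA: in sinusoidal endothelial, Kupffer, stellate and cholangiocyte nuclei, the median of the 18 hepatocyte markers was 0.308 to 0.761 of the level in hepatocyte nuclei of the same library. Single markers spread around that median, from 0.265 to 1.01 in sinusoidal endothelial nuclei of the library labelled CD control. The median served as the background, and the spread of the markers played no part in the rule. A member was read as above this background only where the interval of its own ratio lay above the marker ratio of that class and library. The share of all genes above or below this background by the same rule was not counted. Fgf21 was not above it in any class. In sinusoidal endothelial nuclei Fgf21 had 0 UMIs in both CD libraries, allowing up to 3.56 and 5.55 CPM, and measured 11.3 (3.67 to 26.4) and 33.4 (21.8 to 48.9) CPM in LPD control and LPD oncogene. Those are 0.330 (0.107 to 0.774) and 0.264 (0.172 to 0.388) of the hepatocyte level, against marker ratios of 0.547 and 0.406. Shares of sinusoidal endothelial nuclei with an Fgf21 UMI were 0.990% and 2.97% on LPD, at a median depth of 767 and 843 UMIs, beside 7.70% and 25.1% of hepatocyte nuclei at 2231 and 2256 UMIs.

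Klb and Fgfr4, the genes of the FGF15 receptor pair, were likewise not above the hepatocyte background in any of the 9 classes and 4 libraries. Klb was below it, with its interval clear of the marker ratio, in 3 of 4 libraries in sinusoidal endothelial nuclei and in 3 of 4 in Kupffer nuclei, the liver's resident macrophages. Its ratio to hepatocytes was 0.124 to 0.448 in the former and 0.105 to 0.193 in the latter. The lowest single hepatocyte marker of a library stood at 0.126 to 0.364 and at 0.0961 to 0.373, a spread that the rule leaves out.

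Fgfr2 RNA was highest in hepatic stellate cells, the vitamin A storing cells that form scar tissue when activated. Its level in stellate nuclei was 2011 CPM (795 UMIs in 214 nuclei), 1328 (622 UMIs in 286 nuclei), 1992 (511 UMIs in 223 nuclei) and 1581 (173 UMIs in 103 nuclei). That was 7.34-fold (6.82 to 7.88), 6.40-fold (5.89 to 6.94), 10.4-fold (9.45 to 11.4) and 8.95-fold (7.63 to 10.4) the hepatocyte level. The 4 libraries kept no order by diet. After thinning, 77.4%, 59.1%, 73.6% and 67.9% of stellate nuclei held an Fgfr2 UMI, against 24.5%, 18.6%, 17.4% and 15.5% of hepatocyte nuclei.

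Cholangiocytes, the cells that line bile ducts, carried RNA of FGFR1, FGFR2 and FGFR3 above the hepatocyte background in all 4 libraries. Fgfr3 measured 520 CPM (358 to 730, 33 UMIs in 36 nuclei), 318 (230 to 429, 43 in 80), 150 (68.5 to 284, 9 in 52) and 424 (203 to 780, 10 in 23), between 3.25-fold and 13-fold the hepatocyte level. The lowest value, in LPD control, came with the lowest level of the 10 cholangiocyte markers in these nuclei (a sum of 8419.9 CPM, against 11239.8 to 13373 in the other libraries), and their part in the Fgfr3 value was not tested. Fgfr2 measured 788, 466, 233 and 594 CPM in these nuclei, and Fgfr1 126 (8 UMIs), 155 (21), 133 (8) and 254 (6). With 23 to 80 nuclei in a library the intervals were wide, and differences between libraries were not detectable for Fgfr1.

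In other classes Fgfr1 was above the background in some libraries only. Sinusoidal endothelial nuclei held 16.6 CPM (9.09 to 27.9), 14.8 (6.39 to 29.2), 38.5 (22.4 to 61.6) and 91.1 (71.1 to 115) of Fgfr1. Both LPD libraries were above the background there, and the LPD oncogene level exceeded that of LPD control with intervals apart. Kupffer nuclei held 64.0 CPM (44.8 to 88.7, 36 UMIs) in LPD oncogene and 18.3 to 42.2 CPM, from 3 to 7 UMIs, in the other libraries. The LPD oncogene value and the highest of the others, that of the library labelled CD control, were above the background. Stellate, mesothelial and monocyte or dendritic nuclei each had Fgfr1 above it in 2 of 4 libraries. Fgfr2 and Fgfr3 were above it in sinusoidal endothelial nuclei of 1 library each, Fgfr2 also in mesothelial nuclei of 1 library, and no receptor gene was in T or NK or in B nuclei.

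**Figure D4:**
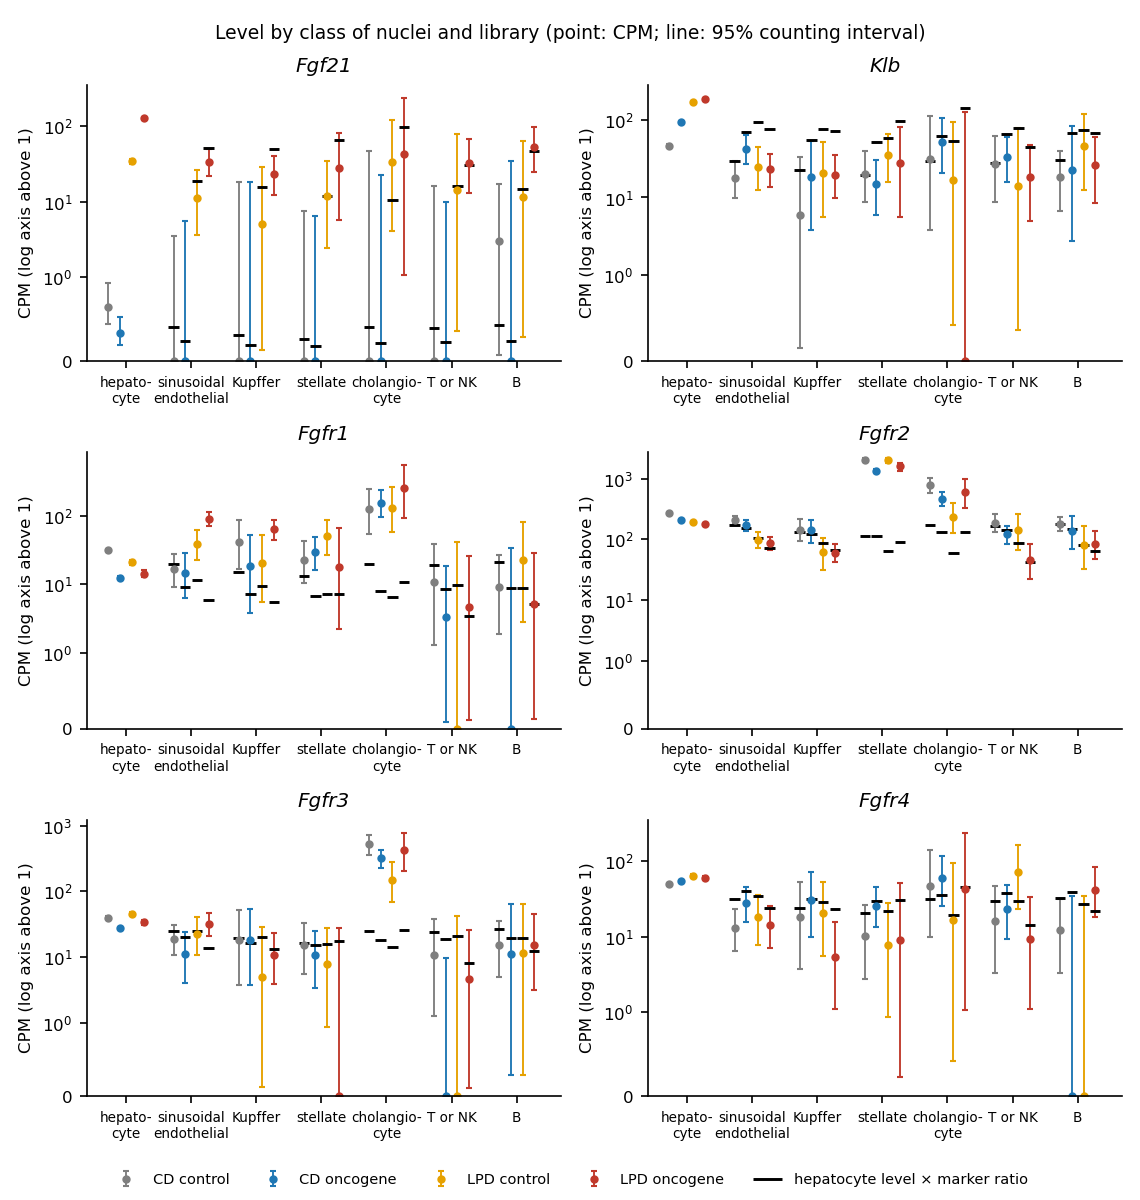
Level of each gene in 7 classes of nuclei, in CPM on an axis that is logarithmic above 1; points are CPM values of 1 library, coloured lines 95% counting intervals (up to the limit of 3 UMIs where none was counted) and black ticks the hepatocyte level times the median ratio of 18 hepatocyte markers. No interval of Fgf21, Klb or Fgfr4 lay wholly above its tick outside hepatocytes, Fgfr2 was far above them in stellate nuclei and Fgfr1, Fgfr2 and Fgfr3 in cholangiocyte nuclei.

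Few ligand genes were seen in hepatocyte nuclei. Of 21 other FGF ligands, only Fgf1, a ligand of all FGF receptors, passed the filter in hepatocyte nuclei, at 122, 78.4, 127 and 123 CPM. Fgf15, the gut hormone, had 0 UMIs in hepatocytes of every library. Fgf2 was seen in stellate nuclei (43.1 CPM over all libraries, 32.3 to 56.4) and mesothelial nuclei (273 CPM, 178 to 400, 26 UMIs), against 0.402 CPM in hepatocytes. Fgf12 and Fgf13, members of the family that stay inside the cell, were seen outside hepatocytes as well. Fgf12 measured 227 CPM (201 to 255, 279 UMIs) in stellate and 213 (162 to 274, 60 UMIs) in cholangiocyte nuclei, and Fgf13 323 (284 to 365) in T or NK nuclei.

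The other genes of the pathway were read in hepatocyte nuclei from 9 lists with 130 genes, by the same rule of 2-fold in all 4 LPD-CD pairs (background 2.58% higher and 1.53% lower). The median of all genes tested was 0.20 on the log2 scale with 5 CPM added. Of the adaptor and cascade genes that carry the signal from receptor to ERK, 13 of 16 were tested and none was past 2-fold, with a median of 0.29. The co-receptor or decoy list (4 of 10 tested, median 0.12) and the feedback inhibitor or ERK target list (5 of 14 tested, median -0.04) had none either. Egr1, an immediate early gene of ERK signalling in the latter list, measured 164, 20, 5.47 and 14.6 CPM. Spry2 and Spry4, inhibitors of the cascade, and its targets Etv4 and Etv5 were under the filter.

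Genes upstream of Fgf21 differed less than Fgf21 itself. All 18 listed regulators were tested and none was past 2-fold in all 4 pairs (median 0.36). Atf4, whose activity is set mainly at translation, measured 127, 74.0, 74.9 and 67.4 CPM, and Eif2ak3, the kinase PERK of the stress response, 44.1, 29.8, 75.7 and 109 CPM. Nr1d1, a clock gene that represses transcription, measured 55.7, 8.14, 133 and 59.0 CPM. Its level also differed between the libraries of each diet, and the part of clock phase in the Fgf21 difference was not tested.

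Many targets of ATF4 were low in hepatocyte nuclei. In the amino acid deprivation list 6 of 18 genes were tested, 2 were past 2-fold higher in all 4 pairs and none lower, with a median of 1.14. Both, and 1 further gene of the 6, passed the filter of 20 CPM only through the LPD libraries where they are high, so this count and median are no support for a difference of the list. Slc3a2, a subunit of amino acid transporters, measured 7.66, 7.79, 22.6 and 34.3 CPM, and Sesn2, an amino acid sensor of the mTOR pathway, 4.49, 5.80, 20.4 and 20.3 CPM. Among those under the filter, Trib3 measured 3.41, 1.91, 16.7 and 18.5 CPM, Nupr1 0.521, 0.353, 10.1 and 17.9, and Aldh1l2 0.130, 0.0744, 9.05 and 8.58. Asns, asparagine synthetase, did not separate the diets, at 0.672, 4.03, 2.28 and 6.67 CPM. Nor did Cth, at 145, 446, 171 and 147 CPM.

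PPARA and ChREBP are further regulators of Fgf21. Of the PPARA targets 11 of 14 were tested, none was higher and 2 were lower (median 0.50). Ehhadh, an enzyme of peroxisomal fatty acid oxidation, was among the latter genes, at 271, 246, 56.2 and 84.9 CPM. All 11 ChREBP targets were tested and none was past 2-fold in all 4 pairs (median 0.76, beside 0.20 for all genes). Of the 11, 9 had a mean ratio above 0 and 6 were higher in every pair. Of the 18 regulators of Fgf21, 14 had such a mean and 12 were higher in every pair. The share of all genes with these signs was not counted, so the sign counts are no result about the lists. Pklr, the liver pyruvate kinase, measured 84.9, 48.5, 171 and 332 CPM, and Khk, which phosphorylates fructose, 56.6, 61.3, 207 and 122 CPM. Between LPD oncogene and LPD control 3 of the 11 were past 2-fold lower (G6pc, Acly and Fasn, log2 ratios of -1.90, -1.31 and -1.03), as were 1.02% of 6864 genes. None was past 2-fold higher, as were 1.5% of genes. The median of the 11 was -0.82. Pklr and Gpd1 were higher in LPD oncogene, at log2 ratios of 0.94 and 0.12, and the other listed targets were lower.

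Of 8 genes under FGF15, FGFR4 and KLB, all were tested, 1 was lower in all 4 pairs and none higher (median -0.10). It was Cyp7b1, a hydroxylase of the alternative bile acid pathway, at 2726, 1251, 411 and 530 CPM. Cyp7a1 measured 72.8, 153, 77.8 and 183 CPM and did not separate the diets.

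**Figure D5:**
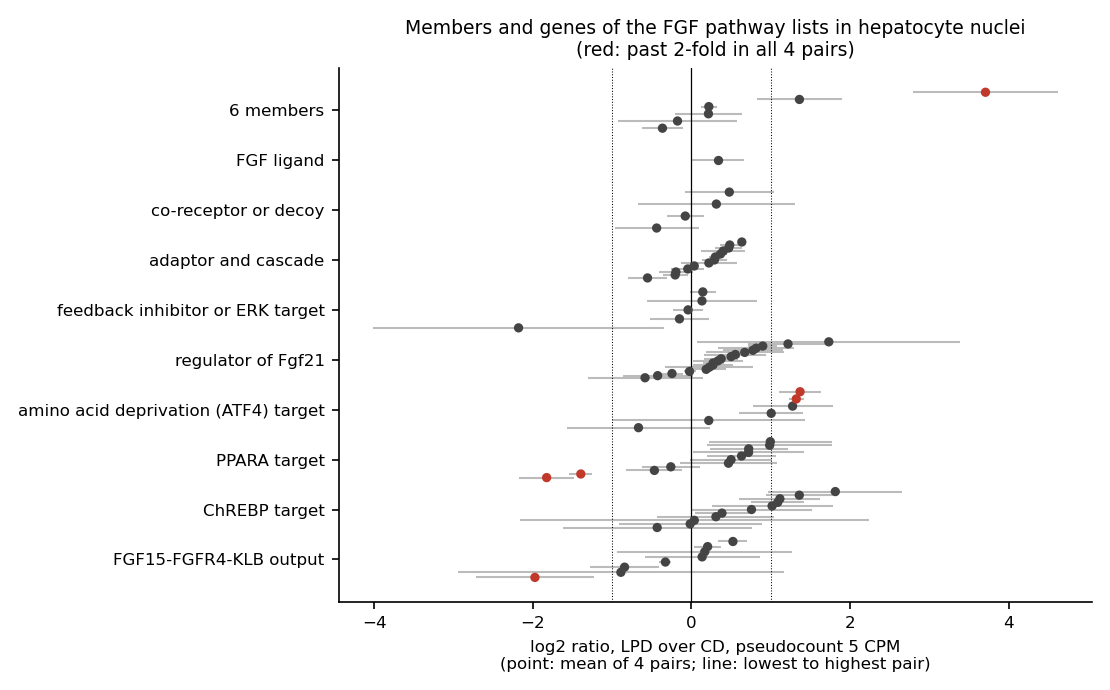
Log2 ratio of LPD over CD, with 5 CPM added, in hepatocyte nuclei for the 6 genes and the tested genes of 9 pathway lists; points are means of the 4 pairs of libraries, lines run from the lowest to the highest pair, red points are past 2-fold in all 4 pairs and dotted lines mark 2-fold. Fgf21 lies far to the right of all genes of the lists, at a mean of 3.71.

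The genes whose levels followed each member most closely were sought over 34 profiles, each a class or zone with at least 50 nuclei in 1 library, by Pearson's r of log2(CPM + 5) among 12938 genes. Profiles of 1 library share their depth and free RNA, so r is given as a description. The genes were picked by r over these same libraries, so an order of libraries shared with a member follows in part from the choice. Nearest to Fgf21 were Lpin1 (r = 0.90), Cyp39a1, Eif2s2, Mfsd2a and Fkbp5 (0.85). Lpin1, a phosphatidate phosphatase that is also a coactivator in hepatocytes, measured 69.4, 111, 838 and 1628 CPM in hepatocytes of the 4 libraries, and Mfsd2a, a lysophospholipid carrier, 2.10, 8.25, 41.9 and 87.1 CPM. All 5, picked for following Fgf21, were higher in both LPD than in both CD libraries and higher in LPD oncogene than in LPD control.

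Klb was followed most closely by Pdia5 (0.93), Dpys, Ahsg, Errfi1 and Mat1a (0.91). Errfi1, a feedback inhibitor of EGF receptor signalling, measured 1514, 2515, 4309 and 4561 CPM, and Mat1a, which makes S-adenosylmethionine in liver, 507, 976, 1910 and 2269 CPM, both in the same order of libraries as Klb. Closest to Fgfr2 were Ank3 (0.92), Rgs7, Efna5, Gpc6 and Sema6c. Fgfr3 had Slc44a3 (0.86), Mkx, Cys1, Unc13b and Map3k21, and Fgfr4 had Mcm10 (0.87), 9330162012Rik, Igsf11, Pgpep1 and Gcdh. The lowest r was that of Fgfr1, with Tmtc3 (0.76), Tbc1d19, Hes1, Kif3a and Wdr60.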

How the data were processed

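Single-nucleus RNA of 4 liver libraries was analysed from the UMI counts per gene and nucleus that the authors deposited without normalization. Per the file headers these came from Cell Ranger 9.0.1, and per the labels the genome was mm10 (human c-MET and CTNNB1 added, per the study's methods) and Seurat 5 was used downstream. Whether intronic reads were counted is not given in the sources used here.

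Nuclei with 200 to 7000 genes and at most 21% mitochondrial UMIs were kept (42877 of 44010 barcodes). A nucleus joined 1 of 9 non-hepatocyte classes when it held at least 3 distinct markers of that class, at least 3 times as many as of the next class, and no more UMIs than the median hepatocyte; 915 deeper ones were left out as likely doublets, and no doublet caller was run. Hepatocytes had at most 2 markers of every other class and at least 50% of the library's median share of hepatocyte-marker UMIs. Markers above 100 CPM in the deeper nuclei (C6 and Pkhd1) were not counted, and 2406 nuclei stayed unassigned. The numbers of this gate were set on marker counts after the files were seen. In all, 78.7% of nuclei were hepatocytes. Zones were 3 equal groups per library by the mean of log-normalized (to 10000 UMIs) pericentral minus periportal markers.

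UMIs were summed per library and class and scaled by all mouse UMIs (CPM). Intervals are exact Poisson, conditional or Clopper-Pearson at 95%; a count of 0 was given the limit of 3 counts. Fold background used log2(CPM + 5) with at least 20 CPM and 50 UMIs; zone markers were left out of the zonal background. The step was tested on simulated data. All members were named, with the 5 genes of highest r for each (among genes with at least 20 CPM in 1 profile) and the listed genes past 2-fold in all 4 pairs, at most 10 per list. Of the genes this rule names, 1 is not reported here. Other listed genes in the text were chosen after their values were seen. Members, lists and markers were chosen with earlier results of these data known. Alternatives were stricter nucleus filters (500 genes, 5% mitochondrial), a stricter gate, TMM factors (edgeR 4.0.16, R 4.3.3), totals without mitochondrial genes, means of per-nucleus CPM, pseudocounts of 1 and 0.1, thinning to 1000 UMIs, common zone limits and no filter on low counts. Python 3.11.15 with numpy 2.4.6, scipy 1.17.1, pandas 2.3.3 and matplotlib 3.10.9 was used.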

Additional observations from a re-analysis of the deposited data

Results flagged for a closer look

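By the labels as given, contrasts of 3 members went in opposite directions in the 2 strata of the design, and with 1 library per group these differences were not tested. Fgf21 was higher in the LPD oncogene than in the LPD control library, by a log2 ratio of 1.88 (1.76 to 2.00), and lower in the library labelled CD oncogene than in that labelled CD control, at -0.96 (-1.89 to -0.07). The CD value rests on 18 against 30 UMIs and on labels that the transgene counts go against. Fgfr1 was lower on LPD than on CD in the libraries labelled as controls, at a log2 ratio of -0.59 (-0.75 to -0.44), and at 0.20 (-0.01 to 0.41) in those labelled oncogene, an interval that holds 0. For Fgfr4 the log2 ratio of the oncogene over the control library was -0.10 (-0.21 to 0.02) on LPD and 0.13 (0.05 to 0.21) on CD.
If the labels of the CD libraries are exchanged, the CD ratio becomes 0.96 for Fgf21 and -0.13 for Fgfr4, the same directions as on LPD. Fgfr1 then still differs in direction, at 0.75 (0.58 to 0.93) for LPD over CD in controls and -1.15 (-1.34 to -0.96) in the oncogene groups. Fgfr3 would do so too, at 0.73 (0.61 to 0.85) and -0.24 (-0.37 to -0.11).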

How the results depend on the processing

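Alternatives were run on levels, means of the 4 LPD-CD pairs, oncogene over control ratios and zonal ratios; of these ratios, those with a counting interval clear of 0 kept their sign under every alternative but the exchange of labels below. Single LPD-CD pairs were not covered: by the TMM-scaled levels Fgfr4 was lower in LPD oncogene (55.5 CPM) than in the library labelled CD oncogene (60.04 CPM). Exchanging the CD labels, an alternative chosen after seeing the data, turns the ratios between the CD libraries by construction, to 0.083 for Fgf21, -0.96 for Klb, 1.07 for Fgfr1, 0.39 for Fgfr2, 0.46 for Fgfr3 and -0.12 for Fgfr4. On the scale with 5 CPM added, the mean LPD over CD log2 ratio was 3.71 for Fgf21 and 1.36 for Klb. For Fgf21 it became 3.63 with TMM factors, 3.79 as a mean of per-nucleus CPM, and 5.50 and 6.85 with pseudocounts of 1 and 0.1 CPM, since its CD levels are under 1 CPM. For Klb it became 1.29 with the stricter filter of nuclei, 1.2 with TMM, 1.31 without mitochondrial genes, and 1.42 and 1.43 with the smaller pseudocounts. The LPD oncogene over LPD control ratio of Fgf21 went from 1.74 to 1.85 and 1.88 with those pseudocounts. For Fgfr1 between the CD libraries the value of -1.07 became -0.96 as a mean of per-nucleus CPM, and -0.98 with TMM, both no longer past 2-fold, and -1.28 and -1.34 with the smaller pseudocounts. The mean periportal over pericentral log2 ratio of Fgfr1 was 2.32 on CD and 1.77 on LPD. It became 2.09 (per-nucleus CPM), 3.08 and 3.38 (pseudocounts) and 2.06 (thinned) on CD, and 2.35 and 2.56 (pseudocounts) and 2.03 (common zone limits) on LPD. That of Fgfr2 was 0.44 on CD and 1.95 on LPD. On CD it lay at 0.48 with the stricter gate, without mitochondrial genes, as per-nucleus CPM and after thinning, and at 0.50 with common limits; on LPD it was 2.06 after thinning. The LPD value stayed above the CD value in each. With TMM factors the mean LPD over CD log2 ratio of Fgfr3 was 0.07, that of Fgfr4 0.06 and that of Fgfr2 -0.53. Without a filter on low counts the numbers of genes past 2-fold stayed within 1.5 times. No paired analysis was possible because each group is 1 library without replicate numbers. With 1 library per group the spread between mice is unknown, depth and diet cannot be told apart, and classes under 100 nuclei allow only large differences to be seen.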
